A study of Mus musculus with 14 samples.

Results

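Megakaryocyte and platelet genes (9 of the 24833 genes in the deposited count table) were followed across 14 RNA sequencing libraries of hematopoietic stem cell-enriched mouse bone marrow. They were taken by name: Itga2b, Itgb3, Gp9 and Gp1bb (adhesion receptors), Vwf, Pf4 and Thbs1 (secreted proteins), and Selp and Rab27b (granule membrane and secretion). All 9 were listed in the table, and all 9 passed the filter on low counts that kept 15466 genes. The C57BL/6 mice had received daily intraperitoneal injections of the inflammatory cytokine interleukin-1 beta (IL-1β; 0.5 µg per mouse) or of phosphate-buffered saline (PBS) as control. The injections ran for 1 day (3 IL-1β and 3 PBS libraries) or for 20 days (4 and 4). The cells were SLAM cells, an HSC-enriched bone marrow fraction that carries CD150, lacks CD48 and Flk2 and is lineage-negative, Sca-1-positive and Kit-positive. Each library was a biological replicate made from cells pooled over several mice, so the spread between libraries is a spread between pools and not between single animals.

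Platelets are shed by megakaryocytes, which descend from hematopoietic stem cells. In a platelet, the glycoprotein Ib-IX-V complex catches von Willebrand factor on an injured vessel wall, and the activated integrin αIIbβ3 then binds fibrinogen and joins platelets to each other. Alpha granules and dense granules release stored proteins and small molecules during this process, and P-selectin from the alpha granule membrane appears on the platelet surface. Several of these genes are already transcribed in stem cells: Itga2b (CD41) and Vwf in particular are used to mark stem cells with a bias toward the platelet lineage.

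Library totals ran from 21654896 to 29441947 counts, so that 3 counts in a library amounted to 0.102 to 0.139 CPM (counts scaled to a common library total). Of the genes behind the sort markers, Kit had group means of 983 to 1276 CPM, Slamf1 (CD150) 56.9 to 100, Ly6a (Sca-1) 116 to 142, Flt3 44.9 to 110 and Cd48 3.13 to 9.17. Flt3, which encodes Flk2, and Cd48 were selected against at the protein level, and both rose in mRNA after 20 days of IL-1β (log2 fold change 1.02 ± 0.15 SE, adjusted p = 0.000768, and 1.10 ± 0.26, adjusted p = 0.0197), as did Slamf1 (0.81 ± 0.12, adjusted p = 0.000926). Tags in the titles sort the libraries into 4 naming sets, balanced for treatment: at 1 day 10k (replicate 3) and E060216 (replicates 1 and 2), at 20 days E061316 (replicates 1 and 2) and untagged (replicates 3 and 4). What the tags stand for is not stated. The libraries that stood apart were 4. IL-1β 20-day replicate 3 had a summed neutrophil marker level of 2664 CPM, where the other 13 libraries had 95.3 to 186. Outside replicate 3 most of this sum was Prtn3 (group means of 107 to 167 CPM), which rose at 20 days (0.39 ± 0.10, adjusted p = 0.0226). Lcn2 rose as well (7.22 ± 1.40, adjusted p = 0.0108), at 0 to 0.304 CPM in PBS and 1.76 to 94.1 with IL-1β. These calls were lost in 4 and 2 of 14 fits that left out 1 library. In PBS 20-day replicate 4 and both libraries whose titles carry the tag "10k" (replicate 3 of each 1-day group), transcripts under 1500 bases read high against transcripts over 5000 bases. The median difference in log2 CPM between short and long genes, each relative to its mean over the libraries, was 0.47, 0.38 (PBS) and 0.40 (IL-1β) in these 3 libraries and between -0.30 and 0.02 in the other 11. This balance was examined after the values were seen. Of the 9 genes, Pf4 has 721 and Gp9 881 exonic bases, whereas Vwf has 16064 and Rab27b 10679, and the part of the balance in their values was not tested.

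Compared per kilobase of exon, Pf4 was the most abundant of the 9 genes and Itga2b the next. In PBS at 1 day, mean levels were 158 CPM per kb for Pf4, 67.8 for Itga2b, 51.8 for Gp9, 17.6 for Itgb3, 11.8 for Gp1bb, 10.4 for Vwf, 8.31 for Thbs1, 8.24 for Selp and 5.86 for Rab27b. Gp1bb shares 91.1% of its exonic bases with Sept5 on the same strand, so its level and rank may read low. Without scaling by length, Itga2b had the most counts of the 9, with a mean of 370 ± 52 CPM (SD, n = 3) in the same group. All 9 transcripts were thus far above the level of 3 counts in every library, the lowest value being 6.69 CPM for Thbs1.

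**Figure D1:**
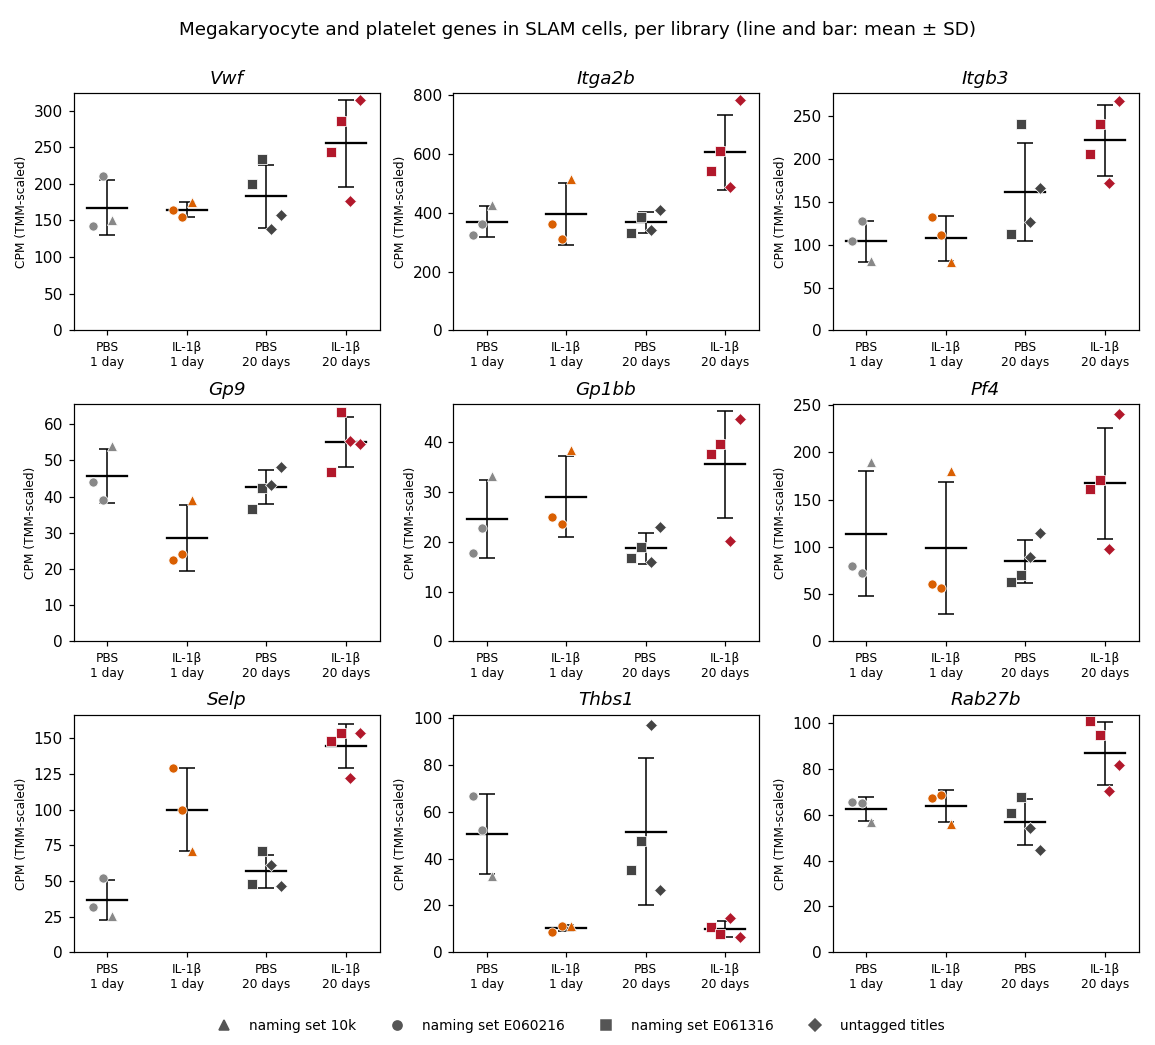
TMM-scaled CPM of each gene (y axis, linear from 0) in the 4 groups (x axis), with 1 point per library, its shape giving the naming set of the library's title, and the line and bar the group mean ± SD. Selp is high and Thbs1 low in both IL-1β groups, while Itga2b and Rab27b separate from PBS at 20 days and not at 1 day.

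The 250 bases upstream of the annotated start are printed for 4 of the genes, chosen because their values bracket what the data show: Pf4 and Itga2b, which rose at 20 days, Gp9, which fell at 1 day, and Selp, which rose at both times. The sequences are from RefSeq (GRCm38.p6), 5′ to 3′ on the strand of the gene, and entries were matched for 5 of the 9 genes (also Gp1bb, which is not printed). Capitals mark matches, on either strand, to core motifs of megakaryocyte transcription factors. The GATA motif was searched in its A form, AGATAA. Its T form was searched as TGATAA. The ETS motif was searched as GGAAGT. The RUNX motif was searched as TGTGGT. The windows are chr5:90772185-90772434 (plus strand) for Pf4, chr11:102469884-102470133 (minus strand) for Itga2b, chr6:87777820-87778069 (plus strand) for Gp9 and chr1:164115014-164115263 (plus strand) for Selp. The Itga2b window overlaps an exon of a non-coding Itga2b transcript in the GENCODE annotation.
Pf4: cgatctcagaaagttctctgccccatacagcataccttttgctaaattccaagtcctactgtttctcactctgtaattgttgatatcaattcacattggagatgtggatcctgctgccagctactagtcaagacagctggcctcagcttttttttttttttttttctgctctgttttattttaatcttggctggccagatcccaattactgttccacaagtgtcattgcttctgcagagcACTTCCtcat
Itga2b: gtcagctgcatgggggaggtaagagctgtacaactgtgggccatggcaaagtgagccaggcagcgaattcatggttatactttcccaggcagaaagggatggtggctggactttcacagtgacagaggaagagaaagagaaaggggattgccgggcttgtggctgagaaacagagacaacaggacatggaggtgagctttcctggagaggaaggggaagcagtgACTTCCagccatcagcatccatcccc
Gp9: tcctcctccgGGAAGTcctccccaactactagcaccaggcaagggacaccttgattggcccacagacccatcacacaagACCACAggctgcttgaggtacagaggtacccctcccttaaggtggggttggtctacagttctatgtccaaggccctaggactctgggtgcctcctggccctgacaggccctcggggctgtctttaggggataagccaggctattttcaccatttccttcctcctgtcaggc
Selp: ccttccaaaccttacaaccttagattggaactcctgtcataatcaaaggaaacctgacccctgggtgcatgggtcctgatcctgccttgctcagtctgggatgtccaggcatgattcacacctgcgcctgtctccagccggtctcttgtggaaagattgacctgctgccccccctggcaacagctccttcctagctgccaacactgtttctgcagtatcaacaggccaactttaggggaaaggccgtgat
The ETS letters occurred 10 bases upstream of the start in Pf4 and 26 bases upstream in Itga2b, in both cases on the opposite strand and therefore printed as ACTTCC. In Gp9 they occurred on the gene's own strand 240 bases upstream, and the RUNX letters on the opposite strand 171 bases upstream, printed as ACCACA. None of the 4 letter strings was in the Selp or Gp1bb window. Of 32851 promoter windows of the same length, 19.7% hold the ETS letters, 14% the RUNX letters, 9.99% the A form and 7.94% the T form of the GATA letters. Such a match is a description of the letters and not a measured binding site.

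After 1 day of IL-1β, Selp rose while Thbs1 and Gp9 fell, and the other 6 genes did not pass the test. After 20 days, Selp, Pf4, Gp1bb, Itga2b and Rab27b rose and Thbs1 fell, while Vwf, Itgb3 and Gp9 did not pass. Tests were edgeR quasi-likelihood tests over all genes with Benjamini-Hochberg adjustment and a threshold of 0.05. The count of 3 of 9 genes called at 1 day stands beside 4.35% of all genes tested (2.52% higher, 1.83% lower), and 6 of 9 at 20 days beside 7.46% (3.94% higher, 3.52% lower). The 9 genes were chosen with earlier results of these data known, so these counts are a description and not a test of enrichment. The median log2 fold change of the 9 genes was 0.03 at 1 day and 0.61 at 20 days, against -0.0145 and -0.000344 over all genes tested. Without regard to the model, IL-1β and PBS libraries did not overlap in 3 of the 9 genes at 1 day (1 higher, 2 lower) and in 4 at 20 days (3 higher, 1 lower). Of all genes tested, the groups did not overlap in 17.7% at 1 day (8.75% higher, 8.91% lower) and in 10.4% at 20 days (5.39% higher, 4.99% lower). Without IL-1β 20-day replicate 4, 4 genes were called at 20 days, 3 higher and Thbs1 lower, and without IL-1β 1-day replicate 1 Selp alone was called at 1 day. Over all genes, these fits called 316 higher and 332 lower of 15359 tested, and 169 higher and 59 lower of 16057.

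**Figure D2:**
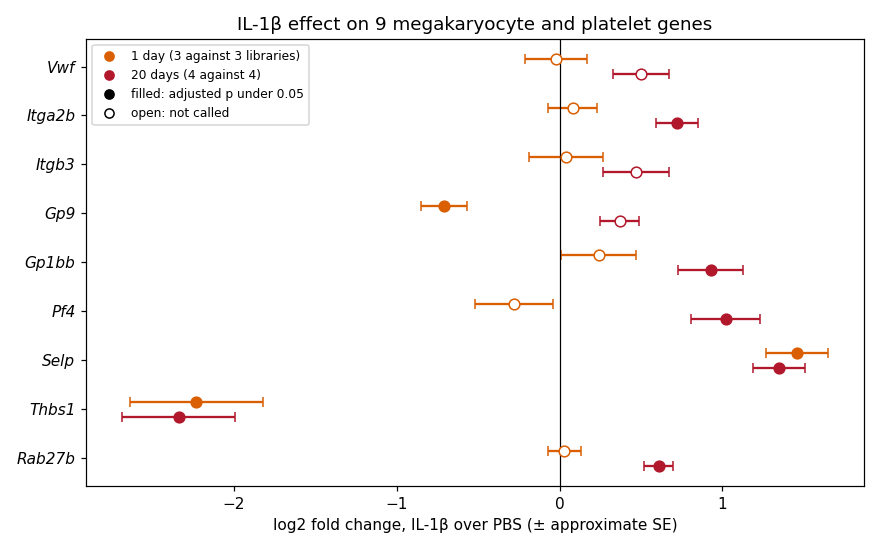
log2 fold change of IL-1β over PBS (x axis) with its approximate standard error for each of the 9 genes (y axis), at 1 day and 20 days, with filled points for adjusted p under 0.05. The gap between the 2 durations is widest for Pf4 and Gp9, and the points of Selp and of Thbs1 lie close together.

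Itga2b and Itgb3 encode the alpha and beta chains of the fibrinogen receptor. Itga2b (chr11:102453297-102470122, minus strand, GRCm38) read 323, 361 and 426 CPM in the PBS libraries at 1 day and 361, 312 and 514 with IL-1β. At 20 days the PBS libraries read 332, 386, 343 and 408 CPM and the IL-1β libraries 541, 609, 489 and 784. The 1-day groups overlapped fully, whereas every 20-day IL-1β library exceeded every PBS library. The 20-day change was 1.65-fold (log2 0.72 ± 0.13 SE, adjusted p = 0.0035), and at 1 day it was 0.08 ± 0.15 (adjusted p = 0.853). The difference between the 2 effects, 0.65 ± 0.20, did not pass (adjusted p = 0.0966). The 20-day call was kept in each of 14 fits that left out 1 library, with log2 fold changes of 0.55 to 0.84. Here and below, naming sets do not cross durations. Leaving out a library of the other duration thus acts on a 1-day or 20-day call only through the shared filter, scaling and spread.

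Itgb3, which pairs with Itga2b in platelets and with the αv chain elsewhere, did not follow it past the threshold. It lies at chr11:104608000-104670476 (plus strand), on the same chromosome as Itga2b. Its levels were 104, 128 and 80.5 CPM in PBS and 132, 111 and 79.3 CPM in IL-1β libraries at 1 day. At 20 days they were 112, 241, 127 and 166 CPM in PBS and 206, 241, 172 and 268 CPM with IL-1β. PBS replicate 2, at 241 CPM, was as high as the second IL-1β library and made the groups overlap. The 20-day log2 fold change was 0.47 ± 0.20 (adjusted p = 0.189), and without that PBS library 0.75 (adjusted p = 0.016). Both 20-day groups averaged more Itgb3 (161 ± 57.6 and 222 ± 41.7 CPM, n = 4 each) than the 1-day groups (104 ± 23.6 and 107 ± 26.5, n = 3 each), but the durations come from different naming sets and the 2 cannot be told apart.

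Gp9 and Gp1bb encode small subunits of the von Willebrand factor receptor. Gp9 (chr6:87778072-87779768, plus strand) fell at 1 day, as Thbs1 did and opposite to Selp. Its PBS libraries read 44, 39.1 and 53.9 CPM at 1 day and its IL-1β libraries 22.6, 24.1 and 39, with the highest IL-1β library just under the lowest PBS library. The highest value of each group came from the 10k pair. The change was 1.63-fold lower (log2 -0.71 ± 0.14, adjusted p = 0.0082). Within the naming sets it was -0.82 (2 against 2 libraries) and -0.47 (1 against 1). Leaving out replicate 1 of PBS (-0.62, adjusted p = 0.0523) or of IL-1β (-0.63, adjusted p = 0.079) at 1 day ended the call.

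At 20 days Gp9 read 36.6, 42.4, 43.2 and 48.3 CPM in PBS and 46.9, 63.5, 55.5 and 54.5 with IL-1β. A single IL-1β library lay inside the PBS range. The log2 fold change of 0.37 ± 0.12 did not pass (adjusted p = 0.0695), but it did without PBS replicate 4, the library with high short transcripts (0.43, adjusted p = 0.0474). The 20-day effect differed from the 1-day effect by 1.08 ± 0.18 on the log2 scale (adjusted p = 0.0137). Of the 9 genes, 2 (Gp9 and Rab27b) passed this test of the difference, beside 2.14% of all genes tested (1.15% with a higher and 0.989% with a lower 20-day effect). For Gp9 the difference failed without IL-1β 1-day replicate 1 (0.99, adjusted p = 0.0654) or replicate 2 (1.07, adjusted p = 0.0542).

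Gp1bb (chr16:18620317-18622403, minus strand) shares 91.1% of its exonic bases with Sept5 on the same strand, so the counts of the pair could have been split or dropped by the counting. Sept5 had 992 counts in all libraries together. Gp1bb read 17.8, 22.8 and 33.2 CPM in PBS and 25.1, 23.6 and 38.4 CPM with IL-1β at 1 day, a log2 fold change of 0.24 ± 0.23 (adjusted p = 0.651). At 20 days PBS libraries read 16.8, 19, 15.9 and 23 CPM and IL-1β libraries 37.6, 39.7, 20.2 and 44.8. The IL-1β libraries other than replicate 3 were well above PBS, and replicate 3 lay inside the PBS range. The change was 1.9-fold higher (log2 0.93 ± 0.20, adjusted p = 0.0131). It was not called without PBS 20-day replicate 1 (0.84, adjusted p = 0.0546) or IL-1β 20-day replicate 4 (0.69, adjusted p = 0.0852). Without IL-1β replicate 3 it was 1.15 (adjusted p = 0.000458).

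Vwf (chr6:125546774-125686679, plus strand) encodes the multimeric adhesion protein that platelets and endothelial cells store. It read 142, 210 and 151 CPM in PBS and 164, 155 and 175 CPM in IL-1β libraries at 1 day. At 20 days it read 200, 234, 139 and 158 CPM in PBS and 244, 286, 176 and 314 CPM in IL-1β libraries. The groups overlapped at both times. The log2 fold change was -0.02 ± 0.19 at 1 day (adjusted p = 0.971) and 0.50 ± 0.17 at 20 days (adjusted p = 0.0898), with 0.29 and 0.66 in the 2 naming sets at 20 days. It passed without IL-1β 20-day replicate 3 (0.61, adjusted p = 0.0476).

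Pf4 (chr5:90772435-90773383, plus strand) encodes platelet factor 4, an alpha granule chemokine. Its 1-day values were set apart mainly by naming set, with IL-1β somewhat below PBS in each: 79.6 and 72.8 CPM against 190 in the 10k library of the PBS group, and 60.4 and 56.4 against 180 in that of the IL-1β group. The 1-day log2 fold change was -0.28 ± 0.24 (adjusted p = 0.604). At 20 days Pf4 read 63.1, 70.3, 89.8 and 115 CPM in PBS and 161, 171, 97.3 and 241 with IL-1β, where replicate 3 alone fell inside the PBS range. Pf4 rose 2.03-fold (log2 1.02 ± 0.21, adjusted p = 0.00913), with a set difference of 1.31 in the set tagged E061316 and 0.59 in the untagged set that holds replicate 3. Leaving out IL-1β 20-day replicate 4 ended the call (0.78, adjusted p = 0.0691), and without IL-1β 20-day replicate 3 the change was 1.29 (adjusted p = 2.01e-05). The gap of 1.30 ± 0.32 between the 2 durations lay at the threshold (adjusted p = 0.050037). It passed when PBS 20-day replicate 4 (1.42, adjusted p = 0.0342) or IL-1β 20-day replicate 3 (1.57, adjusted p = 0.0014) was left out.

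Thbs1 (chr2:118111876-118127133, plus strand) encodes thrombospondin-1, a matrix glycoprotein that alpha granules also hold and fell at both times, opposite to Selp. In PBS it read 66.7, 52.1 and 32.6 CPM at 1 day, and in IL-1β libraries 8.76, 11.3 and 11.1. At 20 days the PBS libraries spread from 26.5 to 97 (35.2, 47.4, 97 and 26.5 CPM) and the IL-1β libraries read 10.8, 7.91, 14.5 and 6.69. All 7 IL-1β libraries were lower than all 7 PBS libraries. The fall was 4.7-fold at 1 day (log2 -2.23 ± 0.41, adjusted p = 0.00556) and 5.08-fold at 20 days (-2.34 ± 0.35, adjusted p = 0.000999), and the difference between the 2 effects was -0.11 ± 0.52 (adjusted p = 0.95). The 1-day call ended when IL-1β 1-day replicate 1 (-2.01, adjusted p = 0.0532) or the filter on low counts (-2.24, adjusted p = 0.0588) was left out. The 20-day call was kept in each of the 14 fits that left out 1 library.

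Macrophages and other cells also make Thbs1, so their markers were read beside it. The complement C1q genes, which mark tissue macrophages, summed to 11.5 to 17.6 CPM in PBS and 4.04 to 11.1 with IL-1β at 1 day, and to 4.9 to 16.2 and 1.78 to 3.63 at 20 days. At 20 days C1qa and C1qb fell (log2 -1.97 ± 0.56, adjusted p = 0.0473, and -1.63 ± 0.46, adjusted p = 0.0445), calls that were lost in 10 (adjusted p up to 0.212) and 11 (up to 0.173) of the 14 fits that left out 1 library. Cd68 (0.97 ± 0.15, adjusted p = 0.00137) and Spic (0.74 ± 0.16, adjusted p = 0.0124) rose at 20 days, and Spic fell at 1 day (-1.13 ± 0.19, adjusted p = 0.00365), all 3 kept in every such fit. All 11 genes of the macrophage list were in the table, and their sum was lower with IL-1β at 1 day, without overlap (74.5 to 87 CPM in PBS, 65 to 72.8 with IL-1β), and overlapped at 20 days (59.8 to 90.6 and 66.8 to 84.7 CPM). In PBS at 20 days, replicates 1 to 4 read 35.2, 47.4, 97 and 26.5 CPM of Thbs1. Their C1q sums were 16.2, 5.04, 4.9 and 5.99 CPM, and their macrophage list sums 90.6, 63.1, 63.7 and 59.8. The immediate early gene Egr1 fell with Thbs1 at both times (-1.07 ± 0.22, adjusted p = 0.0122, and -0.70 ± 0.19, adjusted p = 0.0396), and Ier2 and Zfp36 fell at 1 day (-0.63 ± 0.14, adjusted p = 0.0175, and -0.65 ± 0.16, adjusted p = 0.0376). The Egr1 calls were lost in 4 and 7 of the 14 fits, and those of Ier2 and Zfp36 in 3 and 5. At 20 days Egr1 differed by -1.08 in the set E061316 and -0.31 in the untagged set, and Thbs1 by -2.11 and -2.33. Of 13 immediate early genes, 3 were lower at 1 day and 1 at 20 days, beside 1.83% and 3.52% of all genes tested. Their sums overlapped at both times. In PBS at 1 day they were 3907 and 5190 CPM in the set E060216 and 15579 in the 10k library. The part of either gene group in the Thbs1 result was not tested. In bulk RNA, fewer cells of a type and less RNA per cell cannot be told apart, which holds for every gene here.

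Selp (chr1:164115264-164150026, plus strand) encodes P-selectin, which sits in the alpha granule membrane of platelets and in storage granules of endothelial cells. It read 31.7, 52.2 and 25.2 CPM in PBS and 129, 100 and 71.1 with IL-1β at 1 day. At 20 days it read 48.1, 70.9, 61 and 46.6 CPM in PBS and 148, 154, 122 and 154 with IL-1β. Each of the 7 IL-1β libraries was higher than each of the 7 PBS libraries, by a narrow margin at its closest (71.1 against 70.9 CPM, from different durations). The rise was 2.76-fold at 1 day (log2 1.46 ± 0.19, adjusted p = 0.000619) and 2.55-fold at 20 days (1.35 ± 0.16, adjusted p = 0.00021). The 2 effects differed by -0.11 ± 0.24 (adjusted p = 0.87), and the 4 naming sets gave 1.49, 1.48, 1.36 and 1.36. Both calls were kept in each of the 14 fits that left out 1 library. Antisense transcripts overlap 4.21% (Gm16587) and 9.93% (Gm16548) of the Selp exons and had 136 and 100 counts in all libraries together.

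Selp and Vwf are also genes of endothelial cells, whose other markers were read beside them. Of the 10 genes in the list, 8 were tested, with 1 lower at 1 day and 1 higher and 1 lower at 20 days. Of all genes tested, 1.83% were lower at 1 day, and 3.94% were higher and 3.52% lower at 20 days. Cdh5 had group means of 0.0134 to 0.201 CPM and Stab2 of 0.0685 to 0.268 CPM, and both fell below the filter on low counts. Tie1 fell at both times (-0.47 ± 0.09, adjusted p = 0.0103, lost in 3 of the 14 fits, and -0.43 ± 0.08, adjusted p = 0.00536), and Pecam1, which platelets and blood cells also carry, rose at 20 days (1.17 ± 0.13, adjusted p = 0.000157). The list summed to 721 to 769 CPM in PBS and 616 to 648 in IL-1β libraries at 1 day, and to 761 to 799 and 667 to 777 at 20 days. Most of this sum was Eng and Tie1. Eng had means of 286 and 243 CPM at 1 day (adjusted p = 0.133) and 295 and 255 at 20 days (adjusted p = 0.0974). Tie1 had means of 279 and 201 CPM at 1 day and 294 and 219 at 20 days. The part of endothelial cells in these levels was not tested.

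Rab27b (chr18:69979131-70141605, minus strand) encodes a small GTPase that takes part in granule transport and dense granule secretion. Its fitted effects had the smallest standard errors of the 9 genes. It read 65.8, 65.3 and 56.7 CPM in PBS and 67.2, 68.9 and 55.9 CPM with IL-1β at 1 day. At 20 days it read 61, 67.8, 54.3 and 44.5 CPM in PBS and 101, 95, 70.3 and 81.8 with IL-1β. The 1-day groups lay on top of each other, and every 20-day IL-1β library was above every PBS library. The change was 0.03 ± 0.10 at 1 day (adjusted p = 0.921) and 0.61 ± 0.09 at 20 days, which is 1.53-fold (adjusted p = 0.000748), with 0.61 and 0.62 in the 2 naming sets. The difference between the durations was 0.58 ± 0.14 (adjusted p = 0.0429). It was lost in 10 of the 14 fits that left out 1 library, with adjusted p up to 0.14 and log2 differences of 0.52 to 0.64, while the 20-day call itself was kept in all 14. PBS 20-day replicate 4, with the lowest Rab27b level, was the library in which long transcripts read lowest against short ones, and without it the 20-day change was 0.56 (adjusted p = 0.00128).

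**Figure D3:**
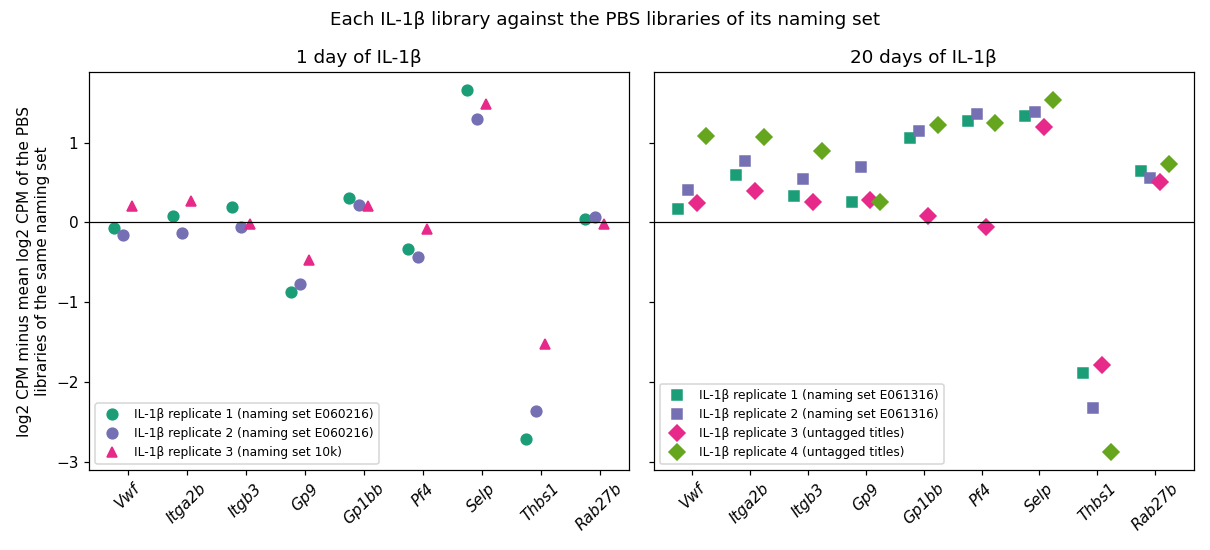
log2 CPM of each IL-1β library minus the mean log2 CPM of the PBS libraries of its naming set (y axis) for the 9 genes (x axis), at 1 day (left) and 20 days (right), with 1 marker per IL-1β library. At 20 days, replicate 3 sits at -0.06 for Pf4 and 0.08 for Gp1bb, where the other 3 libraries lie above 1.

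Within the 20-day IL-1β group, replicates 3 and 4 held most of the extremes. Replicate 3, the library with high neutrophil markers, was the lowest of its group for 7 of the 9 genes (Vwf, Itga2b, Itgb3, Pf4, Gp1bb, Selp and Rab27b), and replicate 4 was the highest for 6 (Vwf, Itga2b, Itgb3, Pf4, Gp1bb and, within rounding, Selp). Without replicate 3, 6 genes were called higher and Thbs1 lower at 20 days. Without PBS replicate 4 the same counts held, with Gp9 called in place of Vwf. Over all genes, these fits called 403 higher and 360 lower of 15323 tested, and 504 higher and 571 lower of 15363. Leaving out together the 3 libraries with high short transcripts gave 6 higher and 1 lower at 20 days and 1 higher and 2 lower at 1 day. Leaving out replicate 3 as well gave 5 higher and 1 lower at 20 days, 1 higher and 3 lower at 1 day (Pf4 being the third, at -0.39, adjusted p = 0.0489) and 5 genes with a higher 20-day than 1-day effect. Over all genes, the fit without 3 libraries called 578 higher and 580 lower at 20 days and 685 and 399 at 1 day, of 15778. The fit without 4 called 492 and 469, and 633 and 361, of 15574. In the difference it called 156 higher and 236 lower. The part of the neutrophil RNA in the low values of replicate 3 was not tested.

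Some markers of other blood and marrow cells moved in the 20-day IL-1β libraries as well. The lineage markers of the sort (7 of 10 in the table) summed to 184 to 327 CPM in PBS and 366 to 429 with IL-1β, without overlap. Most of that sum was Ptprc (means of 269 and 336 CPM, adjusted p = 0.173). The stroma markers (8 of 9) summed to 30.3 to 39 and 43.3 to 56.5 CPM, without overlap. Most of it was Col1a2 (22.2 and 26 CPM, adjusted p = 0.366) and Pdgfrb (11.8 and 22.3 CPM, adjusted p = 0.0369, lost in 7 of the 14 fits). Col1a1 had a higher mean with IL-1β (0.28 and 0.847 CPM) and Cxcl12 a lower one (1.36 and 0.383), neither called. Lepr (0.656 and 0.189 CPM) fell below the filter. Itgam, the CD11b gene of myeloid cells, rose 3.32-fold (log2 1.73 ± 0.32, adjusted p = 0.00427) with no overlap, and Ms4a6c, from the monocyte list, 2.76-fold (1.46 ± 0.14, adjusted p = 3.23e-05). The monocyte sums overlapped (451 to 496 and 466 to 680 CPM), and most of them was Lyz2 (means of 452 and 504 CPM, adjusted p = 0.386). Of the adult beta globins, Hbb-bt rose 8.64-fold (3.11 ± 0.24, adjusted p = 5.51e-06) and Hbb-bs fell (-1.68 ± 0.36, adjusted p = 0.0123, lost in 1 of the 14 fits). These near-identical genes may share reads. The erythroid sums overlapped (1587 to 1917 and 1390 to 1709 CPM). Most of them was Car2 (means of 1712 and 1434 CPM, adjusted p = 0.133), so the sums say little about the globins. The part of any of these in the 20-day results of the 9 genes was not tested.

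Over the 4 groups, 20 days of IL-1β gave the highest mean of every gene except Thbs1, whose highest mean was in PBS at 20 days. Neighbouring groups in the order of means overlapped in nearly all cases. The exceptions were IL-1β at 1 day (100 ± 29.1 CPM, n = 3) over PBS at 20 days (56.6 ± 11.5, n = 4) for Selp, PBS at 1 day (50.5 ± 17.1) over IL-1β at 1 day (10.4 ± 1.4, n = 3 each) for Thbs1, and IL-1β at 20 days (87.1 ± 13.8, n = 4) over IL-1β at 1 day (64 ± 7.05, n = 3) for Rab27b. For Gp9 the order ran from IL-1β at 20 days (55.1 ± 6.77 CPM) through PBS at 1 day (45.7 ± 7.56) and PBS at 20 days (42.6 ± 4.81) to IL-1β at 1 day (28.6 ± 9.07), each overlapping the next.

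A wider list of 78 other genes of megakaryocytes and platelets, ordered by role, gives the setting of these 9. It too was chosen with earlier results of these data known, so its counts are a description. Of the list, 77 were in the table (Gp6 was not listed) and 74 were tested, since Cd226, Myl9 and Adra2a fell below the filter. At 1 day 1 rose and 4 fell, where 2.52% of all genes tested were higher and 1.83% lower, with a median log2 fold change of -0.05. At 20 days 12 rose and P2rx1 fell, where 3.94% of all genes tested were higher and 3.52% lower, the median was 0.12, and 56 of 74 values were above 0. The 1-day count lay near the share over all genes. The difference between the durations passed for 3 genes (2.14% of all genes tested), each with a higher effect at 20 days, with a median of 0.25 against 0.0153 over all genes tested. At 20 days the count of 13 fell to 5 without PBS replicate 1 or IL-1β replicate 4 and to 8 without IL-1β replicate 1. At 1 day the count of 5 fell to 2 without PBS replicate 1, PBS replicate 2 or IL-1β replicate 2 and to 0 without IL-1β replicate 1, and it was 9 without PBS 20-day replicate 4. The 4 genes of the kinase signalling role (Jak2, Sh2b3, Stat5a and Stat5b) had log2 fold changes of -0.16 to 0.05 at 1 day and 0.08 to 0.42 at 20 days.

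Among 12 transcription factors, Gata2, a factor of stem and progenitor cells, fell at 1 day (516 to 392 CPM in the means; -0.40 ± 0.09, adjusted p = 0.017). At 20 days its change was 0.20 ± 0.07 (adjusted p = 0.14), and the difference between the durations was 0.59 ± 0.11 (adjusted p = 0.024). Gata1, the main factor of megakaryocyte and red cell differentiation, rose at 20 days (50.9 to 82.8 CPM, 0.70 ± 0.16, adjusted p = 0.0177) and was at 0.32 ± 0.19 at 1 day (adjusted p = 0.397). The Gata2 calls were each lost in 5 of the 14 fits that left out 1 library. At 1 day this happened on leaving out each 1-day library other than PBS replicate 1. The Gata1 call was lost in 4 fits (PBS 20-day replicates 1 and 3, IL-1β 20-day replicates 1 and 4, with adjusted p up to 0.0912).

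Of 13 adhesion receptors and surface proteins tested, 4 rose at 20 days and none fell, where 3.94% of all genes tested were higher and 3.52% lower. Gp1ba, the large subunit that carries the von Willebrand factor binding site of the complex with Gp9 and Gp1bb, rose from 11.2 to 19.3 CPM (0.77 ± 0.14, adjusted p = 0.00474). Treml1, an alpha granule membrane receptor, rose from 11.1 to 23.3 CPM (1.05 ± 0.20, adjusted p = 0.00484). Neither call was lost in any of the 14 fits. Fcer1g, the signalling chain of the platelet collagen receptor and of Fc receptors, fell at 1 day from 24.1 to 12.2 CPM (-1.02 ± 0.19, adjusted p = 0.00579), a call ended by leaving out IL-1β 1-day replicate 1 (adjusted p = 0.0544). Gp5, the remaining subunit of that complex, read 67.9 ± 4.57 CPM in PBS and 70.3 ± 11.8 with IL-1β at 20 days (n = 4 each), a log2 fold change of 0.05 ± 0.12 (adjusted p = 0.889). Of the 4 subunit genes, Gp1ba and Gp1bb thus passed the test at 20 days, and Gp9 and Gp5 did not.

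Among 14 genes for granule cargo and granule formation, Serpine2, which encodes the thrombin inhibitor protease nexin-1, rose from 10.7 to 47.6 CPM at 20 days (2.16 ± 0.22, adjusted p = 4.44e-05) and was the 1 gene called. Its 1-day rise (13.2 to 25.3 CPM, 0.94 ± 0.24, adjusted p = 0.0419) was lost in 10 of the 14 fits. The median of the role at 20 days was -0.00. Of 11 genes of the secretion machinery, Stx11, a syntaxin used in platelet granule release, rose from 8.64 to 20.1 CPM (1.22 ± 0.15, adjusted p = 0.000208), and Slc35d3, a dense granule transporter, from 4.11 to 9.37 (1.21 ± 0.34, adjusted p = 0.0421, lost in 9 fits). Slc18a2, a monoamine transporter that loads dense granules, fell at 1 day from 309 to 173 CPM (-0.81 ± 0.16, adjusted p = 0.0108) and was at 0.16 ± 0.14 at 20 days (adjusted p = 0.588), with a difference of 0.97 ± 0.22 (adjusted p = 0.0382). That difference was lost in 8 of the 14 fits and the one of Stx11 (0.94 ± 0.22, adjusted p = 0.0442) in 12. Slc18a2 and Gp9 thus both fell at 1 day and both had a higher effect at 20 days.

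Among the 10 tested genes of the cytoskeleton and integrin activation, Plek (pleckstrin, a protein kinase C substrate of platelets) and Rap1b (the GTPase upstream of αIIbβ3 activation) rose at 20 days, by 0.75 ± 0.18 (adjusted p = 0.0202) and 0.48 ± 0.12 (adjusted p = 0.0237). Without IL-1β 20-day replicate 4, among others, both calls were lost (3 and 5 of the 14 fits). Among 10 agonist receptors and eicosanoid enzymes, F2rl2, a thrombin-responsive receptor, rose from 10.7 to 24.8 CPM (1.23 ± 0.25, adjusted p = 0.00743, kept in every fit). The ADP receptor gene P2ry1 rose (0.70 ± 0.19, adjusted p = 0.0416) and the ATP-gated channel gene P2rx1 fell (-0.40 ± 0.11, adjusted p = 0.0367), each lost in 8 of the 14 fits. P2rx1 also fell at 1 day (-0.54 ± 0.13, adjusted p = 0.0251, lost in 4).

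**Figure D4:**
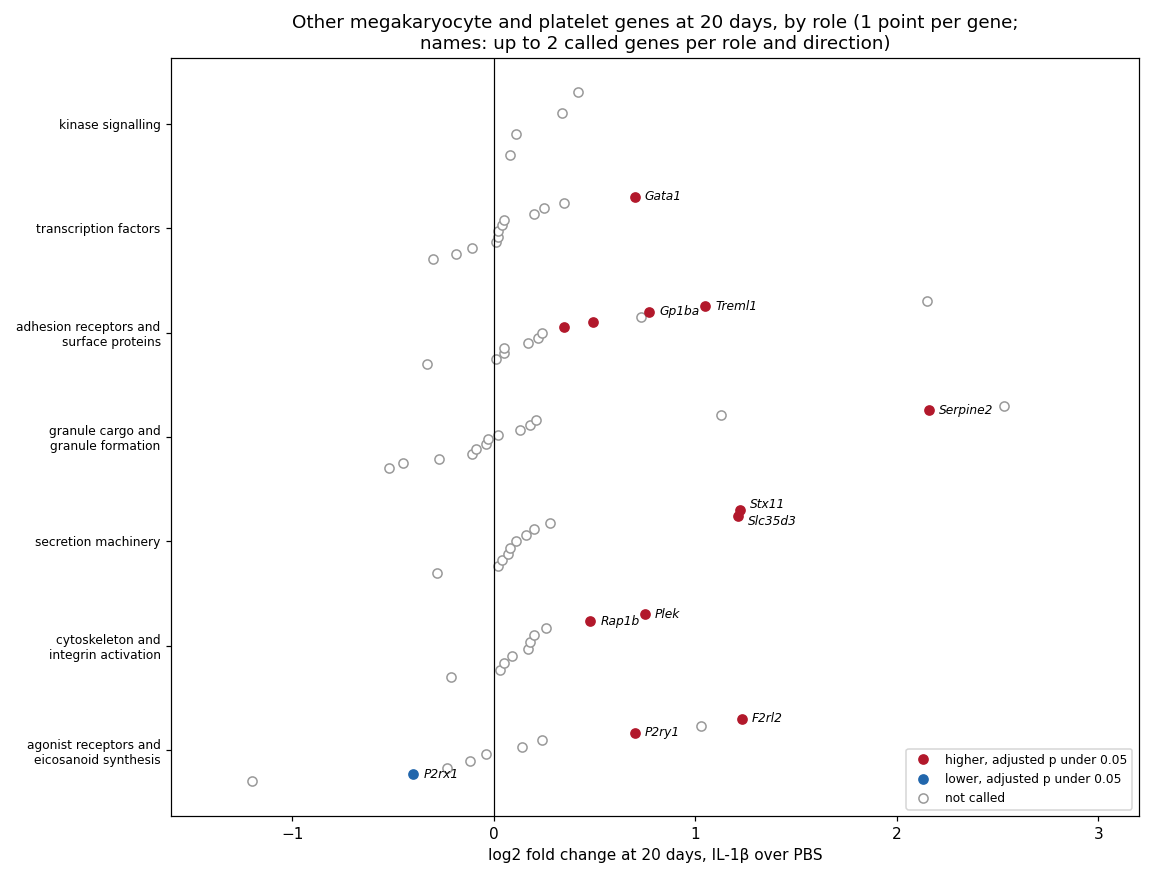
log2 fold change of IL-1β over PBS at 20 days (x axis) of the 74 other megakaryocyte and platelet genes tested, 1 point per gene, grouped by role (y axis), with filled points for adjusted p under 0.05. Red points to the right occur in 6 of the 7 roles, and P2rx1 is the 1 called gene on the left.

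Transcripts typical of mature platelets were read as a check on carried-over megakaryocyte or platelet RNA. Ppbp, among the most abundant platelet transcripts, had group means of 5.21 CPM in PBS and 3.6 CPM with IL-1β at 20 days (-0.52 ± 0.26, adjusted p = 0.273), and Tubb1, the platelet beta tubulin, 2.04 and 2.36 CPM (0.20 ± 0.38, adjusted p = 0.848). Clec1b read 2 and 2.13 CPM, and P2ry12 0.264 and 0.12 CPM. The 7 of 8 listed markers that are not among the 9 genes summed to 29.5 to 36.4 CPM in PBS and 37.2 to 59.4 with IL-1β at 20 days, without overlap. At 1 day the sums were 36.5 to 50 and 37.3 to 47.4 CPM. Treml1 and Gp1ba carried most of the 20-day sum, and their part in the result of the 9 genes was not tested.

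The genes whose log2 CPM followed each of the 9 most closely over the 14 libraries differed from gene to gene, which describes libraries that share treatment, depth and naming set. For Gp1bb the closest were Treml1 (Pearson r = 0.949) and Ache (0.936), and for Gp9 Apoe (0.936) and Ramp1 (0.914). Rab27b ran with Ostm1 (0.962) and B3gnt5 (0.955), Selp with Golm1 (0.937) and Cd53 (0.925), and Thbs1 with Gbp11 (0.953) and Cux1 (0.943). For Itga2b they were 4931415C17Rik (0.892) and Wfdc17 (0.885), for Itgb3 Bcdin3d (0.912) and Tmem171 (0.904), for Pf4 Unc119 (0.897) and Anapc16 (0.883), and for Vwf St3gal2 (0.863) and Sla (0.862). Of these, 4931415C17Rik and Tmem171 had means of 0.303 and 0.288 CPM over the libraries, only a few counts each above the level of 3 counts. None of the 9 genes had another of the 9 among its closest 2.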

How the data were processed

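A single table of raw counts for 14 libraries was deposited by the authors, with 24833 gene symbols, each with a total of at least 2 counts. Per the labels' protocols, sorted SLAM cells gave RNA that was amplified with SMARTer chemistry and made into Nextera XT libraries, which mark no strand and carry no molecular identifiers, so counting limits cover counting error only and overlapping antisense genes cannot be told apart. Per the submitters' processing notes, the tools were HTSeq 0.6.1, STAR 2.4.2a, Trimmomatic 0.32, DESeq2 1.12.3, Cuffdiff and Cufflinks 2.0.2, with build GRCm38.p4 and no stated roles. Annotation and strand setting: not given in the sources used here. Libraries tagged 10k (1 day) carry no replicate number and were numbered 3.

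Counts were fitted with edgeR 4.0.16 (R 4.3.3, limma 3.58.1): filterByExpr at a minimum count of 10 (15466 genes), TMM factors, a term for each of 4 naming sets of library titles, an IL-1β effect per duration, and a 2-sided quasi-likelihood F-test (robust) with Benjamini-Hochberg adjustment over all genes tested. All 14 libraries shared 1 fit (8 residual degrees of freedom, biological coefficient of variation 0.198). The difference between durations was tested in that fit. Standard errors are approximate: the log2 fold change divided by the root of F. CPM are scaled by TMM factors. Libraries of a group differed by more than sampling noise in all 18 pairs (chi-square per degree of freedom 10.7 to 74.4). The fit was tested on simulated data.

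Alternatives were other scaling factors, no filter, DESeq2 1.42.0, no naming set term, a replicate block, each duration fitted alone and each library left out. The alternatives of leaving out 3 or 4 libraries together were chosen after seeing the data. The 9 genes and the lists were chosen with earlier results of these data known. A gene of the wider list is not reported here. Genes named besides the 9 follow a rule: per role and comparison up to 2 called genes with the smallest p in each direction, the 2 most abundant and any called gene of lists of other cell types, and the 2 genes closest to each of the 9. Not every gene it takes is named. Clec1b, P2ry12, Ppbp, Tubb1, Cdh5, Stab2, Slamf1, Kit, Flt3, Cd48, Col1a1, Cxcl12 and Lepr were named as defining markers. Gene positions are from GENCODE M21 (GRCm38), and promoter sequences from RefSeq (GRCm38.p6).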

Additional observations from a re-analysis of the deposited data

Results flagged for a closer look

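Gp9 and Rab27b had a higher IL-1β effect at 20 days than at 1 day by the test of that difference, at 1.08 (adjusted p = 0.0137) and 0.58 (adjusted p = 0.0429) on the log2 scale with edgeR's quasi-likelihood test. In the groups of 4 libraries, 38 sets of values were searched for a library far from the other 3, and 5 were found, where chance finds about 1 in 20. None of the 9 genes was among them. PBS 20-day replicate 4 had the lowest summed lineage markers of its group (184 CPM) and the lowest stroma markers (30.3 CPM), and PBS 20-day replicate 1 the highest macrophage markers (90.6 CPM). IL-1β 20-day replicate 3 had the highest lineage markers (429 CPM) and the highest neutrophil markers (2664 CPM) of its group.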

How the results depend on the processing

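Of 648 recomputed values for the 27 effects of the 9 genes, 584 kept direction and, where a test was made, the call. Of the rest, 26 lost the call, 17 gained it, 2 moved beyond the spread between replicates and 0 reversed a called direction. The remaining 19 had the opposite sign with no call (Vwf, Itga2b, Itgb3 and Rab27b at 1 day, Selp and Thbs1 in the difference between durations). The 648 include differences within single naming sets, which carry no test and no call. Such a difference was counted as kept when it lay within the spread between replicates of the fitted value. The all-gene counts at 1 day (672) were 1406 with DESeq2, 290 with no naming set term, 1200 with each duration on its own and 1084 with 3 libraries left out together. At 20 days (1154) the first 3 gave 1808, 525 and 750. For the difference between durations (331), DESeq2 gave 1181, no naming set term 23 and 3 libraries left out 609. Of the 9 genes, the difference was called for 4 with DESeq2, 0 with no naming set term, 1 with the replicate block and 5 with 4 libraries left out. The wider list (5 and 13 calls at 1 and 20 days) gave 9 and 21 with DESeq2, 1 and 3 with no naming set term, 8 and 7 with each duration fitted alone, and at 1 day 3 with the replicate block and 8 with 4 libraries left out. Upper-quartile factors made 344 higher and 399 lower at 1 day (46.3% higher, against 57.9%). With the replicate number as a block, 383, 672 and 23 genes were called at 1 day, 20 days and in the difference. The numbers were not taken as pairs. Deviations of log2 CPM from the group mean correlated at 0.0443 to 0.426 between PBS and IL-1β libraries of the same number. PBS 1-day replicate 1 and PBS 20-day replicate 4 correlated best with an IL-1β library of another number, and the other PBS libraries with that of their own. The Rab27b difference was lost under the block (adjusted p = 0.126). Leaving out 1 library gave 228 to 1244, 648 to 1156 and 34 to 604 genes, 1 to 3, 4 to 7 and 0 to 3 of the 9 genes, and 0 to 9 and 5 to 13 of the wider list. Without the naming set term, the calls of Pf4 (0.99, adjusted p = 0.22) and Gp1bb (0.93, adjusted p = 0.0537) at 20 days and Gp9 at 1 day (-0.68, adjusted p = 0.109) were lost. With DESeq2, Vwf (adjusted p = 0.0339) and Gp9 (adjusted p = 0.0253) were called at 20 days. The cause of these shifts was not tested. The lowest level of the 9 genes, 6.69 CPM, lay well above the level of 3 counts.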
